A study of Rattus norvegicus with 8 samples.

Results

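The genes described here encode the subunits of the mitochondrial respiratory chain and of the ATP synthase that it drives. They were chosen by symbol: every probe whose transcript record belongs to a rat gene named Ndufa, Ndufb, Ndufc, Ndufs or Ndufv, Sdha to Sdhd, Uqcr, Cyc1, Cycs, Cox4i to Cox8, or Atp5 was taken, and the genes were grouped by complex. Of 16678 named genes with a probe on the array, 90 met this rule, through 122 probes. They comprised 35 genes of complex I, 7 complex I assembly factors (the Ndufaf genes), 4 genes of complex II, 9 of complex III, cytochrome c, 17 of complex IV and 17 of complex V. Among them are genes that the prefixes bring in although they are not fixed subunits of the named complex: the assembly factors, the pseudogene Cox6c-ps1, the ATP synthase inhibitor Atp5if1 and the supercomplex factor Cox7a2l. Coding genes of the rule such as Cox7a1, Ndufa3, Ndufa8 and Ndufs6 were not analysed here, and neither were the subunits encoded by the mitochondrial genome.

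RNA came from vessels of male rats, 4 of them controls and 4 hypertensive, and each animal had 1 array. The control rats were Wistar-Kyoto, a normotensive laboratory strain. The hypertensive rats, the disease model of the series, carry the strain entry Wistar-Kyoto too, so their strain is not settled here. The kind of vessel and the age of the animals are not given in the sources used here, and no treatment is named for either group. The comparison asks how transcripts of vessels in a hypertensive model differ from those of controls.

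In the inner mitochondrial membrane, complex I takes electrons from NADH and complex II takes them from succinate. Complex III passes them through cytochrome c to complex IV, which reduces oxygen. Complexes I, III and IV pump protons, and complex V makes ATP from the returning flow. Nearly all subunits are nuclear genes, and many of their promoters are known to bind the transcription factors NRF1, GABP of the ETS family, and YY1.

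Promoter sequence was available for 75 of the 87 genes that could be tested, as 300 bases per gene, 250 before and 50 after the annotated start (RefSeq, assembly GRCr8). These sequences show which motif letters some of the genes share. They were searched on both strands for GCATGCGC (the core of the NRF1 motif), CCGGAAG (an ETS motif) and AAGATGGCG (a YY1 motif). The letters of the NRF1 core stood in 11 of the 75 promoters (14.7%), against 4.55% of the 9802 promoters of all tested named genes and 2.66% of the 27457 promoters of the table. The ETS letters stood in 30.7% of the members' promoters, against 16.4% of those of tested named genes and 9.22% of all. The YY1 letters stood in 13.3%, against 3.30% and 1.93%. For comparison, GGGCGGGG (an SP1 motif) was found in 9.33% of the members' promoters and in 28.7% of those of tested named genes, and TATAAA in 6.67% and 8.26%. Median GC content was 57.0% in the members and 60.0% in the tested named genes. At least 1 of the 3 motifs was present in 35 of the 75 promoters (46.7%) and in 22.3% of those of tested named genes. A match of letters is a description and not a binding site.

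The stretches below, 170 bases before to 30 after the start, show these motifs in 4 members whose values are given further on: the electron carrier Cycs, a core protein of complex III, a general subunit of complex IV, and a subunit of complex I near the test's threshold. Capitals mark the NRF1 core in Cycs, the NRF1 core (first) and the YY1 motif (second) in Uqcrc1, 2 ETS motifs in Cox4i1 and 1 in Ndufs8. The ETS motifs, and the NRF1 core of Uqcrc1, are read on the opposite strand of the printed one.
Cycs promoter, chr4:80984738-80984937, minus strand: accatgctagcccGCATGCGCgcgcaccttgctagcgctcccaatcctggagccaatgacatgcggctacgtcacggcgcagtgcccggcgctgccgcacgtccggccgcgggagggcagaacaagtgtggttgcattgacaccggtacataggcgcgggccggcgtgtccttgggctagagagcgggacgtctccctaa
Uqcrc1 promoter, chr8:118468053-118468252, plus strand: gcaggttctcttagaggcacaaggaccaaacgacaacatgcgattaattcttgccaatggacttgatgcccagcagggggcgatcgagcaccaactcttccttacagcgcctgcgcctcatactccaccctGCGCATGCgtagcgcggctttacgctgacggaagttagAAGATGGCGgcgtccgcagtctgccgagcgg
Cox4i1 promoter, chr19:65630213-65630412, plus strand: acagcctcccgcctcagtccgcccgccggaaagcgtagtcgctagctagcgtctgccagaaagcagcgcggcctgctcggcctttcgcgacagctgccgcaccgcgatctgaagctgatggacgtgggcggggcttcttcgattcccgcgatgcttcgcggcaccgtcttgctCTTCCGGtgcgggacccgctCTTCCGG
Ndufs8 promoter, chr1:210573669-210573868, minus strand: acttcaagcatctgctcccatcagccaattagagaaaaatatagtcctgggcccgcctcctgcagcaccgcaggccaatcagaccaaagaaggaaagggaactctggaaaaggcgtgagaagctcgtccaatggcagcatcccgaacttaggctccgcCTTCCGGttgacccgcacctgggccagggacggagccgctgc

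The respiratory chain genes as a group were at nearly the same level in both groups of vessels. Levels are log2 signal relative to the array's 75th percentile, changes are hypertensive minus control, and each change is given ± its standard error from limma, with 4 arrays in each group. Of the 87 genes tested, 0 were higher and 1 was lower at an adjusted p under 0.05 (limma, Benjamini-Hochberg over all 24552 tests). Of all tests, 4.53% passed, 1.91% lower and 2.61% higher in the hypertensive group. The split over all tests was 641 higher and 470 lower. It became 529 and 586 with quantile normalization, and 422 and 652 when arrays were scaled by their median. At an unadjusted limma p under 0.05 there were 12 of the 87 genes (13.8%), 4 higher and 8 lower, against 20.3% of all tests. Over the 3288 brighter tests, at or above the lower quartile of the members' levels, that share was 13.3%, near that of the members. Of these 3288, 41 passed the adjusted threshold higher and 45 lower. The 2 groups of 4 arrays did not overlap for 14 genes (16.1%), against 13.6% of all tests and 11.8% of the brighter tests.

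The median change of the 87 genes was 0.02, with 44 above 0 and 43 below, beside a median of 0.04 over all tests. Neither that split nor the sign of the median is settled. With quantile normalization 51 of the 87 genes were below 0, and with median scaling 66. The median was -0.01 with normexp background correction, -0.04 with quantile normalization and -0.06 with median scaling. Changes ran from -0.47 to 0.56. Their interquartile range was 0.18, against 0.29 over all tests but 0.19 over the 3288 brighter tests. The 95% interval of the change lay within ±0.5 on the log2 scale for 79 of the 87 genes. Over all tests the same held for 58.0%, and for 84.8% of the 3288 tests at or above the lower quartile of the members' levels. For 86 of the 87 genes the interval lay within a 2-fold change, with Cox6a2 the exception. In whole vessels, fewer cells of a type and less RNA per cell cannot be told apart.

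**Figure D1:**
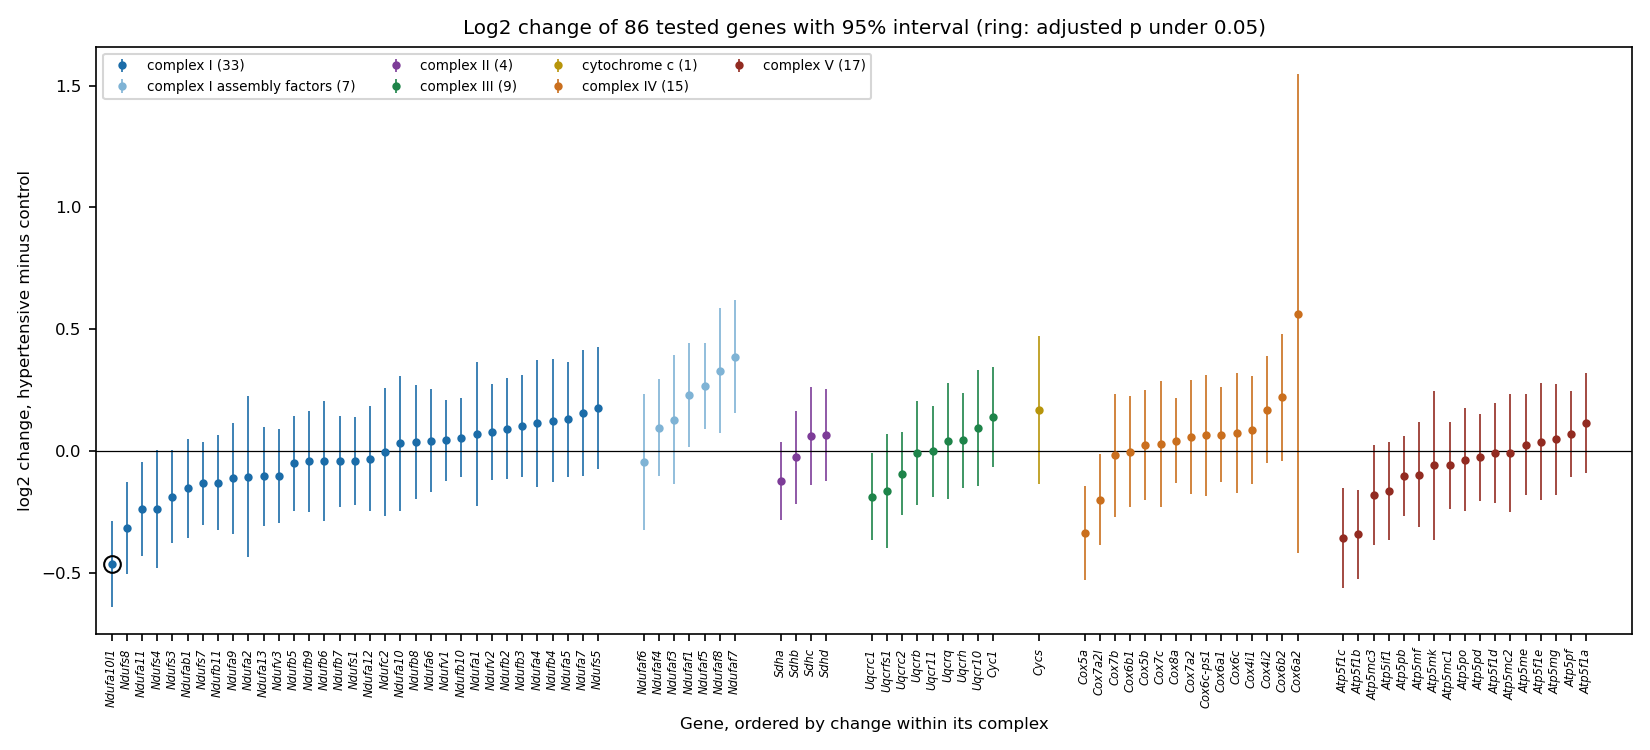
Log2 change (hypertensive minus control, vertical axis) of 86 of the 87 tested genes with 95% interval from limma, ordered by change within each complex. The ringed point is Ndufa10l1, the gene with an adjusted p under 0.05, and 6 of the 7 assembly factors and 11 of the 15 genes of complex IV lie above 0 (3 of the 15 with median scaling).

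The gene past the threshold was Ndufa10l1, which is named as a near copy of Ndufa10, an accessory subunit of complex I. Its levels were 3.78, 3.95, 3.92 and 3.87 in the controls and 3.43, 3.32, 3.47 and 3.45 in the hypertensive rats, listed here and below from replicate 1 to 4. Every hypertensive array was below every control array. With an adjusted p of 0.012, Ndufa10l1 fell by 0.47 (log2, SE 0.08), a ratio of control to hypertensive of 1.38. The call held without any 1 array, with adjusted p of 0.020 to 0.042. A second, dimmer probe of the same transcript record gave 1.87, 1.88, 1.93 and 1.84 in the controls and 1.70, 1.63, 1.75 and 1.79 in the hypertensive rats. Those groups did not overlap either, but the difference was smaller, -0.16 ± 0.07 (adjusted p = 0.28 when each probe was tested for itself). With the mean of both probes the change was -0.31 and the adjusted p 0.052, in a range of 0.0017 to 0.061 over all settings. Ndufa10 itself differed by 0.03 ± 0.12. Whether probes of the 2 genes bind each other's transcripts was not tested.

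Other genes of complex I are named here after their values were seen, as are Ndufaf8, Ndufaf1, Ndufaf6 and Uqcrc2 further on. Ndufs8, an iron-sulfur core subunit that hands electrons towards ubiquinone and whose promoter is printed above, was 1.89, 1.84, 1.93 and 1.94 in the controls and 1.50, 1.66, 1.70 and 1.47 in the hypertensive rats. The groups did not overlap, and the difference of -0.32 ± 0.08 had an adjusted p of 0.070. It passed under 3 other settings, normexp, quantile normalization and median scaling, with adjusted p of 0.016 to 0.049, and the range over all settings was 0.016 to 0.19. Among other core subunits, the change was -0.04 for Ndufs1, -0.19 for Ndufs3, -0.13 for Ndufs7, 0.04 for Ndufv1 and 0.08 for Ndufv2, with adjusted p of 0.26 or more. Accessory subunits ran from -0.24 for Ndufa11 and Ndufs4 to 0.18 for Ndufs5, leaving aside Ndufa10l1. Ndufa4, now known as a subunit of complex IV, differed by 0.11 ± 0.12. Over the 34 tested genes of complex I, 15 were above 0 and 19 below, with a median of -0.04. At an unadjusted limma p under 0.05 there were 3 lower and 0 higher (8.82%, against 20.3% of all tests and 13.3% of the 3288 brighter tests).

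Ndufv3, an accessory subunit of the NADH-binding arm, is read through 2 transcript records that gave different results. The probe that was brighter on the mean of all 8 arrays, and so stood for the gene, was 1.88, 1.74, 1.89 and 1.97 in the controls. It was 1.82, 1.65, 1.85 and 1.74 in the hypertensive rats, overlapping ranges with a difference of -0.10 ± 0.09. The probe for the second record was 1.76, 1.82, 1.85 and 2.16 in the controls and 1.04, 0.88, 1.30 and 0.77 in the hypertensive rats. On the mean of the controls alone it was not the dimmer probe, so which probe stood for the gene depended on the hypertensive arrays. The second probe fell by 0.90 (SE 0.14), a ratio of control to hypertensive of 1.87. Its adjusted p was 0.0077 when each of the 27822 kept probes was tested for itself and 4.37% of probes passed. It was singled out after its values were seen. The call held without any 1 array (adjusted p of 0.0058 to 0.028), and the adjusted p was 0.00068 to 0.053 over all settings, so that 1 of them ended the call. Of 24 members with at least 2 kept probes, the pair of Ndufv3 had the widest gap in change, 0.80 on the log2 scale. In 6 of the 24 the probes differed in sign, in none of them with both at an unadjusted limma p under 0.05.

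**Figure D2:**
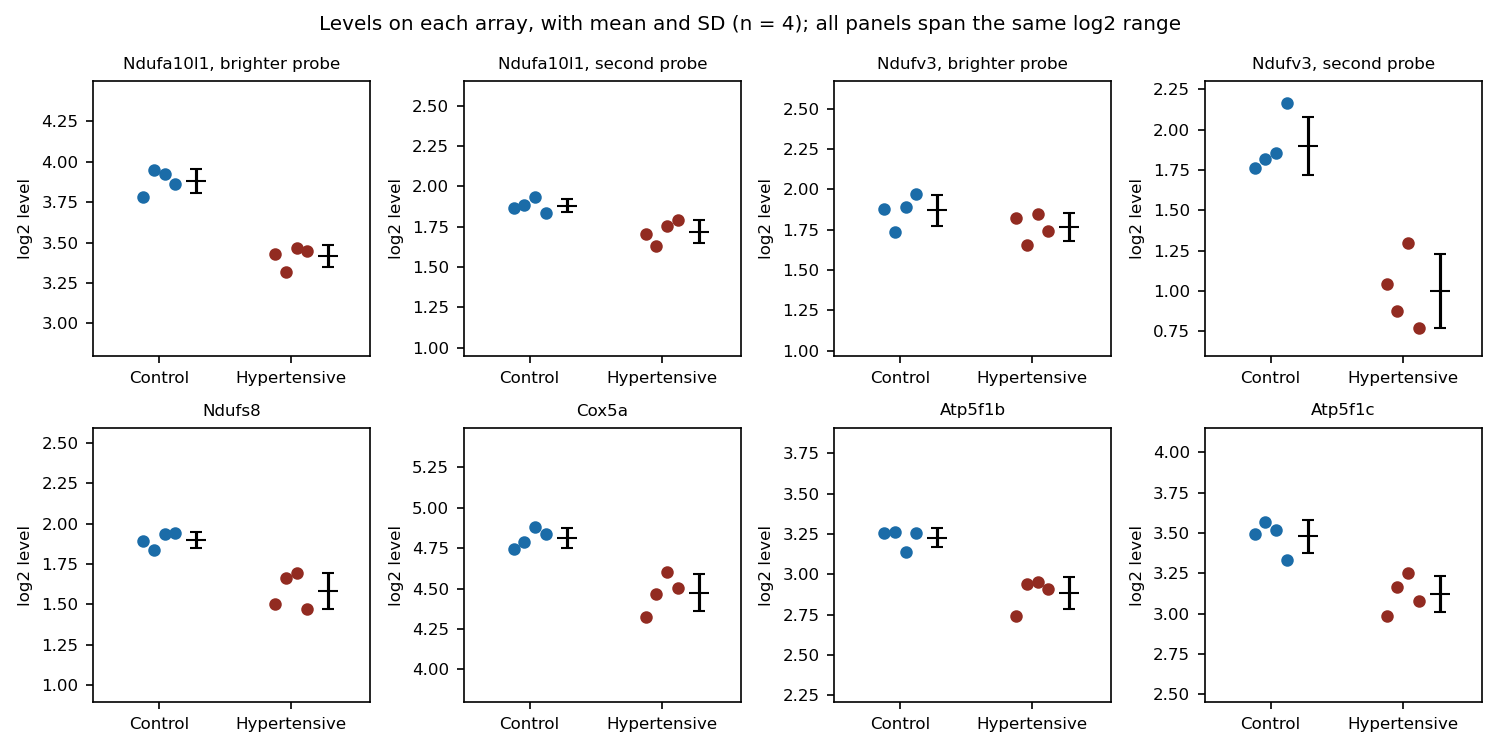
Log2 level relative to the 75th percentile on each array (points) with mean and SD (black, n = 4) for probes of 6 members, in panels of equal height in log2 units. The second probe of Ndufv3 shows the widest gap between the groups, 1.76 to 2.16 against 0.77 to 1.30. The groups overlap for the probe of Ndufv3 that was brighter on the mean of all 8 arrays.

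The complex I assembly factors, which build the enzyme but are not part of it, had the highest median change of the groups with more than 1 gene, 0.23. However, 0 of the 7 passed the test and the gap to the subunits was not tested. The 39 tested assembly factors outside the Ndufaf symbols, taken up further on, had a median of 0.04, with 24 above 0 and 15 below. Of the 7 Ndufaf genes, 6 were above 0 and 4 were higher at an unadjusted limma p under 0.05. Of all 24552 tests 20.3% reached that level, 3006 of them higher. The median of the 7 stayed above 0 in every setting tried, from 0.14 with median scaling to 0.29 without control replicate 2. Ndufaf7, a methyltransferase, was -1.29, -1.15, -1.20 and -1.46 in the controls and -0.95, -0.90, -0.70 and -1.01 in the hypertensive rats. These groups did not overlap, and the difference was 0.39 ± 0.10 (adjusted p = 0.072). Its second probe gave -0.08 ± 0.09, so the 2 probes differ in sign. Ndufaf5, which hydroxylates a core subunit, was 1.29, 1.46, 1.43 and 1.36 against 1.58, 1.63, 1.72 and 1.68, without overlap, a difference of 0.27 ± 0.08 (adjusted p = 0.094). Ndufaf8 differed by 0.33 ± 0.11 and Ndufaf1 by 0.23 ± 0.09, with adjusted p of 0.14 and 0.21. The lowest of the 7 was Ndufaf6, at -0.04 ± 0.12.

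Complex II, which is also an enzyme of the citric acid cycle, showed differences within 0.13 in either direction, and 0 of its 4 genes had an unadjusted limma p under 0.05. Its flavoprotein gene Sdha was 3.68, 3.71, 3.69 and 3.73 in the controls and 3.49, 3.57, 3.61 and 3.63 in the hypertensive rats. The groups did not overlap, but the difference was small, -0.13 ± 0.07 (adjusted p = 0.36). The membrane anchor Sdhd differed by 0.06 ± 0.08, and its sign turned with median scaling.

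In complex III, 4 of 9 genes were above 0 and 5 below, with a median of -0.00, and 0 passed the test. Uqcrc1, a core protein of the complex, was 3.04, 3.10, 3.09 and 3.03 in the controls and 2.82, 2.84, 2.83 and 3.02 in the hypertensive rats. Hypertensive replicate 4 lay just under the lowest control, the other hypertensive arrays well below it. The difference was -0.19 ± 0.08 (adjusted p = 0.22), and -0.24 without hypertensive replicate 4 (adjusted p = 0.10, the lowest of its alternatives, which reached 0.42). Uqcrc2, the second core protein, differed by -0.09 ± 0.07, also without overlap. Uqcrfs1, the Rieske iron-sulfur protein, gave -0.16 ± 0.10 and Cyc1, cytochrome c1, gave 0.14 ± 0.09, both with adjusted p above 0.4. Cytochrome c, Cycs, was 3.98, 4.31, 4.25 and 3.97 against 4.12, 4.20, 4.62 and 4.23. The ranges overlapped, and its difference of 0.17 ± 0.13 stood beside -0.12 ± 0.13 from a second probe.

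In complex IV, where several subunits exist as tissue isoforms, 11 of 15 tested genes were above 0, but the median was 0.06 with quartiles of 0.01 and 0.08, and 0 passed the test. With median scaling 3 of the 15 were above 0. Cox5a, a subunit on the matrix side of the complex, was 4.75, 4.79, 4.88 and 4.84 in the controls and 4.33, 4.47, 4.60 and 4.50 in the hypertensive rats. The groups did not overlap, and the difference was -0.34 ± 0.08 (adjusted p = 0.062). It passed with normexp, quantile normalization and array weights (adjusted p of 0.017 to 0.17 over all settings), while a second probe gave -0.09 ± 0.08. Cox7a2l, which joins complexes III and IV into supercomplexes, differed by -0.20 ± 0.08 (adjusted p = 0.21).

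Of the isoform pairs, Cox4i1, the general form of subunit 4, was 5.97, 6.27, 6.32 and 6.27 against 6.24, 6.33, 6.37 and 6.22, a difference of 0.08 ± 0.10. Cox4i2, the form known for hypoxia-sensing tissue and for pericytes, was 0.86, 0.95, 1.17 and 1.10 against 1.11, 1.11, 1.31 and 1.22, a difference of 0.17 ± 0.10. Both pairs of ranges overlapped. Cox6a1, the general form of subunit 6a, differed by 0.07 ± 0.09. Its muscle form Cox6a2 was well above background on 2 control and 3 hypertensive arrays, at -4.94, -4.70, -5.06 and -5.94 against -4.70, -5.78, -4.19 and -3.71. The spread between those arrays was wider than the difference of 0.56 ± 0.43. Cox6b1 gave -0.00 ± 0.10 and Cox6b2, known from testis, 0.22 ± 0.11 (adjusted p = 0.33). Cox7a2, Cox7b and Cox8a differed by 0.06 ± 0.10, -0.02 ± 0.11 and 0.04 ± 0.08. Cox8b, Cox8c and Ndufa4l2 were not tested, because they were well above background on too few arrays. Cox8b, the form of heart, skeletal muscle and brown fat, was so on 2 arrays of each group, with -2.50 in hypertensive replicate 4 and -6.18 to -4.81 on the other 7 arrays.

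In complex V, 12 of 17 genes were below 0, with a median of -0.04, and 0 passed the test. With quantile normalization 15 were below 0, and with median scaling 16. Atp5f1b, the catalytic beta subunit of the ATP synthase, was 3.25, 3.26, 3.14 and 3.26 in the controls and 2.74, 2.94, 2.95 and 2.91 in the hypertensive rats. The groups did not overlap, and the difference of -0.34 ± 0.08 had an adjusted p of 0.0505, just outside the threshold, and of 0.011 to 0.15 over the other settings. Atp5f1c, the rotating gamma subunit, was 3.50, 3.57, 3.52 and 3.33 against 2.99, 3.17, 3.25 and 3.08. Again the groups did not overlap, with a difference of -0.36 ± 0.09 (adjusted p = 0.064, and 0.024 to 0.17 over the other settings). Atp5f1a, the alpha subunit that alternates with beta in the same ring, differed by 0.11 ± 0.09. The 3 genes of the membrane ring, Atp5mc1, Atp5mc2 and Atp5mc3, encode the same mature protein and differed by -0.06 ± 0.08, -0.01 ± 0.11 and -0.18 ± 0.09. Atp5if1, which blocks the enzyme when it runs backwards, differed by -0.17 ± 0.09 (adjusted p = 0.34).

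The count of members called moved with the processing. With normexp and with quantile normalization 5 members passed, all lower: Atp5f1b, Atp5f1c, Cox5a, Ndufa10l1 and Ndufs8. Under these settings 6.63% and 4.54% of all tests passed. With median scaling 3 passed, all lower, beside 4.37% of all tests. With array weights 3 passed lower and Ndufaf7 higher, beside 6.28% of all tests. Detection on all 8 arrays gave Atp5f1b and Ndufa10l1 (4.46% of all tests), and the mean of kept probes gave Atp5f1b and Ndufv3 (4.64%), all lower. In the main setting Ndufa10l1 alone was called, and it alone was called when any 1 array was left out, while the share of all tests called ran from 2.56% without control replicate 1 to 6% without hypertensive replicate 4.

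The members also moved together from array to array within each group. As the median over the 87 genes of each gene's level minus its own mean, the control arrays stood at -0.14, 0.04, 0.12 and 0.00 and the hypertensive arrays at -0.08, 0.02, 0.10 and -0.04. Replicate 1 was lowest and replicate 3 highest in both groups. On control replicate 3, 79 of the 87 genes (90.8%) were above their own mean, and on control replicate 1 only 18 (20.7%). Hypertensive replicates 3 and 1 gave 69 (79.3%) and 18. Over all tests these shares were 45.9% to 59.5%.

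**Figure D3:**
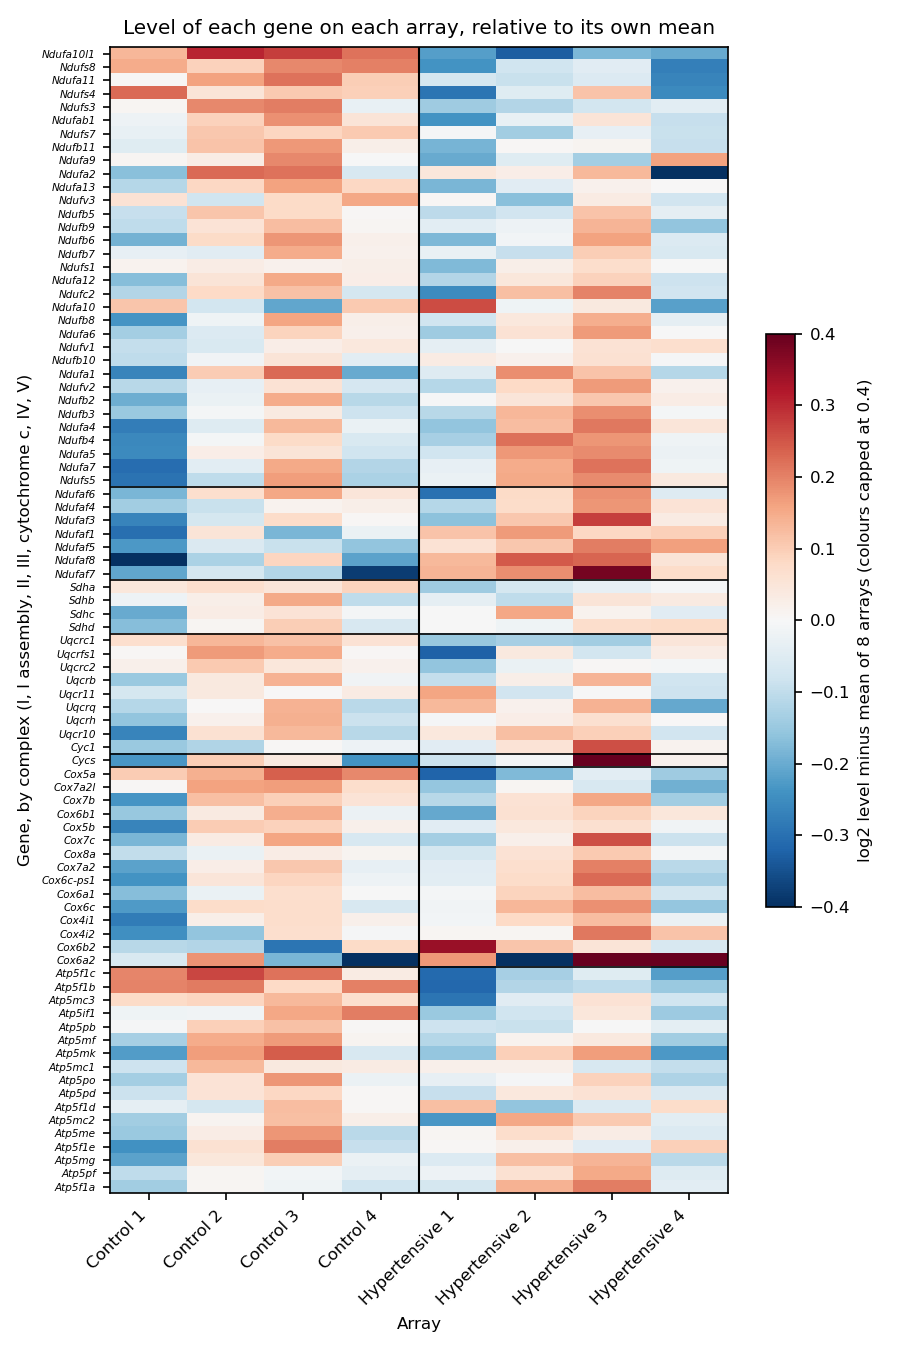
Level of 86 of the 87 genes (rows, by complex and then by change) on each array (columns) as log2 difference from its own 8-array mean, with colours capped at 0.4. Whole columns share a colour, with control replicate 3 above the mean for 79 of 87 genes and control replicate 1 for 18, while rows that switch colour at the line between the groups are few.

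Other genes shared the pattern in part. The 3223 other tests of like brightness stood at -0.08, 0.01, 0.03 and -0.03 in the controls and -0.04, 0.08, 0.06 and -0.01 in the hypertensive rats. The 68 mitochondrial ribosomal protein genes ran from -0.11 to 0.08 and the 77 cytosolic ones from -0.24 to 0.17, with replicate 1 lowest in both groups for each list. For the members, quantile normalization reduced the spread between arrays of a group from an SD of 0.093 to 0.045, while normexp left it at 0.089 and median scaling raised it to 0.128. Replicate 1 stayed lowest and replicate 3 highest under all 3. Arrays with the same replicate number lay at the same position of the 2 slide rows, per the file headers. The part of position in these values was not tested.

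**Figure D4:**
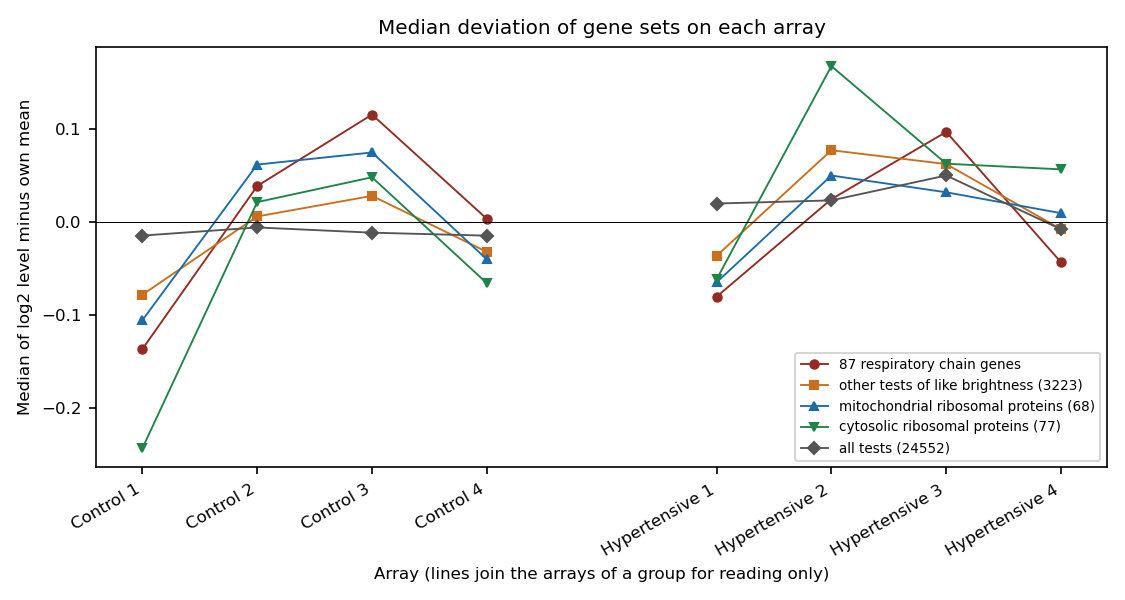
Median over gene sets of log2 level minus the gene's own mean, by array, for the members, other bright tests, mitochondrial and cytosolic ribosomal protein genes and all tests. The members run from -0.14 to 0.12 in the controls and from -0.08 to 0.10 in the hypertensive rats, so the 2 groups cover nearly the same range.

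Genes that build, supply or regulate the chain were read on lists set with earlier results of these data known. Calls made up 2.56% of the assembly factors and 4.41% of the mitochondrial ribosomal proteins, beside 4.53% of all tests, so these counts say nothing particular about the lists. Of 39 assembly factors outside the Ndufaf symbols, 1 was higher and 0 lower. That gene was Coa7, needed for complex IV, at -0.39, -0.19, -0.30 and -0.19 against 0.33, 0.34, 0.34 and -0.03, a rise of 0.51 ± 0.11 (adjusted p = 0.035). Its call was lost when any array but hypertensive replicate 4 was left out, with adjusted p up to 0.10. Of 68 mitochondrial ribosomal protein genes, which serve to translate the subunits of the mitochondrial genome, 1 was higher and 2 lower. Mrpl4 fell by 0.96 (SE 0.13, adjusted p = 0.0051) and kept its call without any 1 array. Mrpl38 rose by 0.74 (SE 0.14, adjusted p = 0.023), a call lost without control replicate 1, control replicate 3 or hypertensive replicate 3 (adjusted p of 0.060 to 0.062). Mrps18b fell by 0.48 (SE 0.11, adjusted p = 0.041), a call that of all 8 omissions held only for hypertensive replicate 4 (adjusted p of 0.032 to 0.10).

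Of 22 regulators of mitochondrial biogenesis, 0 passed, with 3 higher and 1 lower at an unadjusted limma p under 0.05. That level was reached by 20.3% of all tests, beside which all such counts of this paragraph are to be read. The coactivator Ppargc1a, dim at -4.46, -4.72, -4.25 and -4.30 against -4.83, -4.63, -4.42 and -4.42, differed by -0.14 ± 0.14. The smallest p on that list was that of Polg, the polymerase of mitochondrial DNA, at -0.39 ± 0.10 (adjusted p = 0.065). Nrf1 and Tfam, named here after their values were seen, differed by 0.07 ± 0.12 and 0.06 ± 0.09. Of 17 genes of pyruvate dehydrogenase and the citric acid cycle, 0 passed and 12 were below 0, with Idh3b at -0.34 ± 0.09, Mdh2 at -0.33 ± 0.10 and Cs at 0.21 ± 0.10 (adjusted p of 0.085 to 0.26), and 2 were lower and 0 higher at an unadjusted p under 0.05. Of 9 adenine nucleotide carriers, porins and uncoupling proteins tested, 0 passed, 1 being higher and 1 lower at an unadjusted p under 0.05. Ucp1, the uncoupling protein of brown fat, was well above background on 1 control and 2 hypertensive arrays and was not tested. Of 12 supercomplex factors and hypoxia-set genes, 0 passed and 1 was lower at an unadjusted p under 0.05. This list as written shares 3 genes with the members, Cox7a2l, Cox4i2 and the untested Ndufa4l2. The lower gene was Cox7a2l, already given above with complex IV.

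The median change was nearly the same for the 35 members with any of the 3 promoter motifs, 0.03, and for the 40 without, -0.00.

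Several facts of the arrays bear on these values. All 8 arrays were on 1 slide, the controls in one row and the hypertensive rats in the other, per the file headers, so slide row and group cannot be told apart. The 75th percentile of signal was 405 to 503 in the controls and 357 to 478 in the hypertensive rats, and 58.7% to 64.1% of probes were well above background. All 12 contractile smooth muscle markers and all 11 endothelial markers on the array were tested. Of the first 0 were called higher and 1 lower (8.33%, beside 4.53% of all tests), and of the second 0 were called. Of the 12 smooth muscle markers 9 were above 0 and 3 below, with a median change of 0.09. The gene called was Myl9, which fell by 0.45 (SE 0.10, adjusted p = 0.048). Of all 8 omissions its call held only for hypertensive replicate 3 (adjusted p of 0.024 to 0.12). The other marker lists were read the same way. Calls made up 11.1% of the mast cell, 12.5% of the nerve and Schwann and 10% of the macrophage markers. They made up 20% of the erythroid and 15.4% of the skeletal muscle markers. On lists this short each share rests on very few genes. Of the mast cell markers 8 of 9 were above 0 (median 0.72, with Srgn called higher), of the nerve and Schwann markers 7 of 8 (median 0.38, with Nefh called higher), and of the white adipocyte markers 14 of 16 (median 0.36). All 8 lymphocyte markers were below 0 (median -0.56, 0 called), as were 7 of 8 fibroblast markers (median -0.36, 0 called) and 7 of 10 macrophage markers (median -0.16, with Mrc1 called lower). Of 5 erythroid markers 2 were above 0 and 3 below (median -0.29), with Epb42 called higher. Of the 5 cardiac and 8 pericyte markers 0 were called, and the pericyte markers include the member Cox4i2. Hypertensive replicate 4 stood apart in white adipocyte markers: the summed signal of 16 tested markers, relative to the 75th percentile, was 113 there, 24.9 to 36.1 in the remaining hypertensive rats and 26.9 to 43.7 among the controls, with 0 of 16 called. Its summed signal was also the hypertensive group's highest for erythroid (47.6 against 13.6 to 21.3) and mast cell markers (22.6 against 12.8 to 15.3). The same held for lymphocyte (11.7 against 6.54 to 8.07) and macrophage markers (236 against 169 to 205). Nerve and Schwann markers gave 10.8 against 8.32 to 10.5. Smooth muscle, endothelial, fibroblast, pericyte, cardiac and skeletal muscle markers were not highest there. Hypertensive replicate 4 was also the highest array for Cox6a2 and Cox8b. The summed signal of the 9 brown adipocyte markers tested, of 12 on the array, was highest there too, at 8.72 against 5.87 to 7.71 on the other arrays, with 0 called, Ucp1 well above background on few arrays, as given above, and Elovl3 on 0. Of the 15 skeletal muscle markers on the array 13 were tested, with 1 called higher and 1 lower. The 13 include the member Cox6a2, and their median change was -0.09, or -0.11 without that gene. Myh1, which was not well above background on all 8 arrays, rose by 2.28 ± 0.50 (adjusted p = 0.040), but by 0.82 with normexp. Of all 8 omissions that call held only for hypertensive replicate 2 (adjusted p of 0.034 to 0.098). Mb fell by 0.54 (SE 0.12, adjusted p = 0.038). Its call was lost when any 1 control array or hypertensive replicate 1 was left out (adjusted p of 0.061 to 0.10). The summed signal of the 13 was 3.30 to 3.49 in the controls and 2.78 to 3.73 in the hypertensive rats, with 3.65 in replicate 4, and Myh7 was well above background on 0 arrays. Without hypertensive replicate 4, Ndufa10l1 was still the member called, and the members' median was 0.03. The part of these markers in the members' values was otherwise not tested.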

How the data were processed

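RNA of 8 vessel samples was extracted with Trizol, and 100 ng was labelled with Cy3 and hybridised to a 1-colour Agilent rat array, per the labels' protocols. The deposited scanner files hold spot intensity values, background-subtracted by Agilent Feature Extraction (version 10.7.1.1 per the file headers, 12.1.1.1 per the submitters' processing notes). The authors' deposited value table holds a ratio: processed intensity over a constant near each array's 75th percentile, with medians of 0.086 to 0.101, and it served as an alternative. Its values lie on a linear scale, are not centred on genes and hold no direction.

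Spots were averaged per probe as log2 intensity, and the array's 75th percentile was subtracted. Probes well above background on at least 3 of 4 arrays of a group were kept (27822). Accessions were matched to symbols through an NCBI gene table (GRCr8), which named 21229 of 45598 probes. The kept probe brightest on the mean of all 8 arrays stood for its gene and each unnamed probe was tested alone, which gave 24552 tests. Groups were compared with limma 3.58.1 in R 4.3.3 (lmFit, eBayes, group as the only term), with Benjamini-Hochberg adjustment at 0.05. The code was tested on simulated data. The 4 arrays per group limit the precision.

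The alternatives were normexp (offset 50, on the spots' median signal in place of the mean that was planned), quantile normalization, median scaling, 2 detection filters, array weights, the replicate number as a block, the mean of kept probes, the value table and leaving out each array. Testing every kept probe for itself was added after the data were seen. The members and lists were chosen with earlier results of these data known. Named are members past the threshold, the 2 smallest p of each complex, a set of isoform genes, members whose probes disagree, and up to 3 genes per companion list. Promoters were matched by symbol for 75 members. Apart from the choice of 1 probe per gene, array levels of different probes are not compared, and protein sequences were not used here. The values of 1 member are not reported here and it is not drawn in the plots of single genes, but it is counted in the totals.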

Additional observations from a re-analysis of the deposited data

Results flagged for a closer look

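Within the named members, 70 groups of 4 arrays were examined for a single value far from the other 3, and 4 stood out. Chance alone marks about 1 group in 20. Uqcrc1 was 3.02 in hypertensive replicate 4, against 2.82 to 2.84 in the other hypertensive rats, and it is there that the gene came close to the controls. Atp5f1b was 3.14 in control replicate 3, against 3.25 to 3.26 in the other controls, still above all hypertensive arrays. Cox4i1 was 5.97 in control replicate 1, against 6.27 to 6.32. Cox6b1 was -1.35 in hypertensive replicate 1, against -1.10 to -1.06. The last 2 lie on the arrays on which most members were below their own mean.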

How the results depend on the processing

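Under every alternative but the replicate block and the mean of kept probes, Ndufa10l1 was called lower. The count of members called lower was 5 with normexp, 5 with quantile normalization, 3 with median scaling and 3 with array weights. It was 2 with detection on all 8 arrays, 2 with the mean of kept probes (Atp5f1b and Ndufv3) and 2 when every kept probe was its own test. The share of all tests called ran from 4.37% to 6.63% over these settings. Array weights gave 1 member higher (Ndufaf7). Over all tests, 1111 passed in the main setting and 641 with no detection filter. Leaving out 1 array gave 629 to 1473 calls over all tests, with over 1.5 times fewer than 1111 without control replicate 1 (629), control replicate 2 (725), control replicate 3 (695) or hypertensive replicate 2 (688). The cause was not tested, beyond the smaller number of arrays.

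The replicate number as a block left 0 members called (Ndufa10l1 at an adjusted p of 0.061, the second Ndufv3 probe at 0.053), 11 of the 87 at an unadjusted limma p under 0.05, and 675 calls over all tests. Across all tests, the correlations of same-numbered arrays' deviations were 0.21, 0.12, -0.00 and -0.15, and not every array correlated best with its own number, so the numbers were not taken to pair the samples. Same-numbered arrays do share a slide position, so this block is also a block of slide position. The members' median deviation had the same order in both groups. Beyond that fit, the part of position in the calls was not tested.

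The sign turned for 8 of the 27 named members, none of them changed by more than 0.084 in the main setting. With median scaling Sdhd was -0.021, Cox4i1 -0.0015, Cox6a1 -0.020, Cox7a2 -0.028 and Cox8a -0.044. With quantile normalization Cox6a1 was -0.019 and Cox8a -0.030. With normexp Cox8a was -0.0038 and Cox6b1 0.026, and with array weights Cox6b1 was 0.021, Cox7b 0.019 and Atp5mc2 0.041. Leaving out 1 array moved Cox6b1 from -0.055 to 0.063, Cox7a2 from -0.0043 to 0.104, Cox7b from -0.10 to 0.025 and Atp5mc2 from -0.060 to 0.069. The members' median turned to -0.04 without control replicate 1 and to -0.01 without hypertensive replicate 3. The cause was not tested. Changes much below the members' median 95% half-interval of 0.21 could not be told from 0, and Cox8b, Cox8c and Ndufa4l2 were too near background to be tested.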
